A study of Mus musculus with 8 samples.

Results

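Glycogen synthesis and breakdown enzymes were examined in the soleus (SOL) of mice with a muscle-specific deletion of Irf4, the gene of interferon regulatory factor 4. The 9 genes were chosen by name (Gys1, Gyg, Gbe1, Ugp2, Pgm1, Pgm2, Pygm, Gaa and Stbd1), and all 9 were found among the 24054 genes of the deposited table. MI4KO mice (n = 4) were male C57BL/6 mice on a high fat diet that carried floxed Irf4 alleles and a Cre recombinase inserted at Myl1, which encodes a myosin light chain of fast fibers. Flox mice (n = 4) had the same sex, strain, diet and floxed alleles but no Cre, so that the alleles and the diet were shared by both groups. The labels gave no age. Because Cre was driven from a muscle fiber gene, vessels, nerves and immune cells of the same muscle should have kept Irf4, which was not measured by cell type here. One library per mouse was sequenced, and mice are numbered 1 to 4 within each group. Values are reads per fixed library size (CPM) after TMM normalization, which sets the scale of each library from the bulk of its genes, and the word value refers to this unit below.

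Between 13417512 and 16384565 reads per mouse were recovered from the values, and 3 reads corresponded to values between 0.181 and 0.225. Irf4 lies at chr13:30749226-30766976 on the plus strand of GRCm38. Its values were 0.686, 1.46, 1.58 and 1.68 in flox mice 1 to 4 and 0.725, 0.840, 0.266 and 1.03 in MI4KO mice 1 to 4. The groups overlapped because flox mouse 1 lay inside the MI4KO range, and the log2 difference was -0.45 with a standard error of 0.20 (unadjusted p = 0.0402, adjusted p = 1.0, limma). The added 1 weighs on values this low, and the log2 difference of Irf4 was -0.88 with 0.1 added instead and -0.86 in edgeR's quasi-likelihood test on 4 to 23 reads per mouse. Summed markers placed the tissue as skeletal muscle, with all 5 general muscle genes detected and summed values between 69953 and 87991. In flox mouse 1, the 12 liver markers summed to 155, against 1.2 to 3.19 in the other mice. In MI4KO mouse 3, the 3 neutrophil markers in the table summed to 3.39, against 0.125 to 0.375 in the others. In whole muscle, fewer cells of a type and less RNA per cell cannot be told apart.

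Muscle glycogen is a branched glucose polymer that feeds contraction. Glucose 6-phosphate is turned into glucose 1-phosphate by phosphoglucomutase and joined to UTP by the UDP-glucose pyrophosphorylase Ugp2. Glycogenin (Gyg) primes a new particle by glucosylating itself, glycogen synthase (Gys1) extends the chains, and the branching enzyme Gbe1 adds branches. In the cytosol, glycogen phosphorylase (Pygm) releases glucose units. In lysosomes, acid alpha-glucosidase (Gaa) degrades glycogen, and Stbd1 is a glycogen-binding membrane protein. Synthase and phosphorylase are controlled largely by phosphorylation and by allosteric ligands, which mRNA levels do not report.

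By symbol in GENCODE M21 on GRCm38, all 9 members are protein-coding genes. The genes of the main reactions are Gys1 at chr7:45434844-45456619 on the plus strand, Pygm at chr19:6384399-6398459 on the plus strand, Gyg at chr3:20122084-20155317 on the minus strand, Gbe1 at chr16:70313949-70569716 on the plus strand and Ugp2 at chr11:21321138-21371201 on the minus strand. The lysosomal gene Gaa lies at chr11:119267887-119285454 on the plus strand, and Stbd1 lies at chr5:92603041-92606579 on the plus strand. The phosphoglucomutase symbols have changed over time. In RefSeq, Pgm1 (chr4:99929451-99987294) lists Pgm2 as an older name and Pgm2 (chr5:64092919-64128355) lists Pgm1 as one, and the table gives symbols without identifiers. Which locus each of these table rows measured is therefore unknown, and they are called by their table symbols here. Gys1 shared 6.64% of its 50-base words with transcripts of Ruvbl2, which overlaps it on the opposite strand, Ugp2 shared 1.10% with the opposite-strand Gm12043, and Pygm shared 0.46% with Pygb. No word of the other 6 members occurred in transcripts of another gene. The libraries were stranded, but whether the counting used the strand is not given in the sources used here, so Gys1 and Ugp2 may hold a small part of their neighbors' reads.

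Irf4 encodes a DNA-binding factor, so the 250 bases before each RefSeq transcription start (GRCm38.p6) were searched on both strands for the interferon-stimulated response element (GAAA, any 2 bases, GAAA), the E-box CAGCTG of muscle factors and the E-box CACGTG. The 9 members have 10 such promoters, since Ugp2 has a pair of starts. None of the 10 held the response element, which is present in 2.98% of 32851 promoters. CAGCTG was found before Gys1, before one start of Ugp2 and at a pair of positions before Pygm, and 13.0% of all promoters hold it. CACGTG was found before Gaa and in 6.02% of all promoters. These motifs do not overlap each other. The promoters of the muscle synthase, the muscle phosphorylase and the lysosomal glucosidase are shown because they hold these matches next to the genes whose values are compared below. Capitals mark CAGCTG or CACGTG, and the last base is the one before the start.
Gys1, chr7:45434589-45434838, plus strand: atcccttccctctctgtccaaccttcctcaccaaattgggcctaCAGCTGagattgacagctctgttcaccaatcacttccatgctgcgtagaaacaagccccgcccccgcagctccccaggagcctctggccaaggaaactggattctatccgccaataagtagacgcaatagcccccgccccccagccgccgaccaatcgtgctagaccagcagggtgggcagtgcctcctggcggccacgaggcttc
Pygm, chr19:6384158-6384407, plus strand: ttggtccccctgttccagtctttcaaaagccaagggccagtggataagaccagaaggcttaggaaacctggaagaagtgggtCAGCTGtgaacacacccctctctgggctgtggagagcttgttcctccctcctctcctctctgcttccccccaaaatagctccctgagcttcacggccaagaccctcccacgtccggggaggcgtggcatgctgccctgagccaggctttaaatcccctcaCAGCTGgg
Gaa, chr11:119267713-119267962, plus strand: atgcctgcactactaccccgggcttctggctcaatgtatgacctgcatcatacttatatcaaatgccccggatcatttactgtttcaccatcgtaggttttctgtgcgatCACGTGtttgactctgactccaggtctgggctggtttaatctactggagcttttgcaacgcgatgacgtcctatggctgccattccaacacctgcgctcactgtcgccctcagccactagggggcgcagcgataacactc
The E-box of Gys1 began 206 bases before its start, those of Pygm began 168 and 8 bases before, and that of Gaa began 140 bases before. These distances are from the RefSeq starts. By GENCODE, Pygm and Gaa begin inside the stretches shown, at 6384399 and 119267887. The Pygm match 8 bases before its RefSeq start thus lies within the GENCODE gene. A match is a description of the letters and not a measured binding site.

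Levels were compared between genes per kb of the longest protein-coding transcript. In flox SOL, Pygm had the highest level among the 9 members, at 809 ± 33.1 CPM per kb (SD, n = 4). It was followed by Ugp2 at 310.2 ± 7.33, Gyg at 258 ± 7.30 and Gys1 at 237 ± 21.7 CPM per kb. Pgm2 was at 155 ± 5.99, Gaa at 58.6 ± 4.09 and Gbe1 at 44.9 ± 3.84 CPM per kb, and Stbd1 (7.10 ± 1.24) and Pgm1 (1.05 ± 0.189) were lowest. Each neighboring pair in this order stood in the same order in 8 of 8 mice and did not overlap, except Gyg and Gys1, which overlapped and kept the order in 7 of 8 mice. Gaa and Gbe1 came close, with 52.1 CPM per kb in the lowest mouse for Gaa and 52.0 in the highest for Gbe1. Pgm1 and Pgm2 were divided by the length of the locus now bearing each symbol. With the length of the other locus, flox means were 145.5 for Pgm2 and 1.12 CPM per kb for Pgm1. Phosphorylase exceeded synthase per kb in every mouse. Before division by transcript length, the value of Pygm relative to Gys1 was 2.60, 3.02, 2.62 and 2.51 in flox mice. In MI4KO mice this undivided ratio was 2.60, 2.39, 3.52 and 2.67.

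The muscle isoforms of synthase and phosphorylase dominated their families. Gys2, the liver glycogen synthase, was at 0.0488 CPM per kb in flox SOL, and its value was 0.374 in flox mouse 1, from 6 reads, and at most 0.145 in each other mouse, from fewer than 3 reads. Flox mouse 1 was also the mouse with the high sum of liver markers, and the part of these in its Gys2 value was not tested. Among phosphorylases, Pygb, the brain form, was at 6.65 and Pygl, the liver form, at 0.359 CPM per kb. Of the other phosphoglucomutases, Pgm5, a family member of muscle adhesion sites, was at 30.1 and Pgm2l1, a glucose bisphosphate synthase, at 1.34 CPM per kb.

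**Figure D1:**
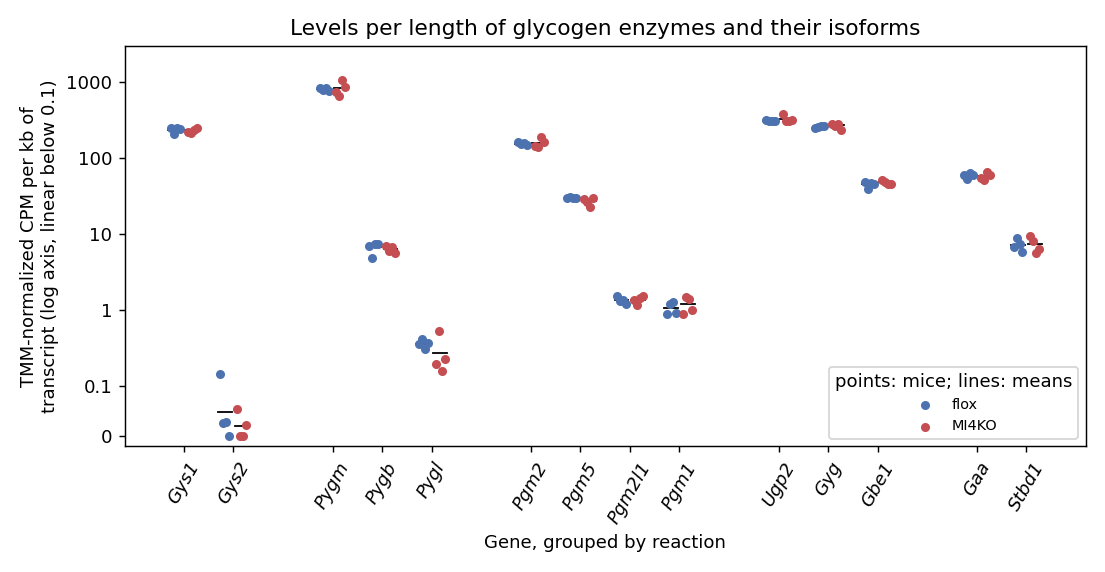
Level of each glycogen enzyme and its isoforms in TMM-normalized CPM per kb of the longest protein-coding transcript (vertical axis, logarithmic above 0.1 and linear below), with genes grouped by reaction on the horizontal axis. Points are the 4 flox and 4 MI4KO mice and lines are group means. Pygm is the highest at 809 in flox mice, Gys2 is near 0, and flox and MI4KO points overlap for each of the 9 members.

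The genes that supply UDP-glucose overlapped between MI4KO and flox SOL. Ugp2 was at 861.7, 823.5, 822.3 and 821.5 in flox mice 1 to 4 and at 1013, 827.6, 835.5 and 839.0 in MI4KO mice 1 to 4. The highest of these belonged to MI4KO mouse 1, and flox mouse 1 lay above the other 3 MI4KO mice. The log2 difference of Ugp2 was 0.07 with a standard error of 0.08 and a 95% interval from -0.10 to 0.25, and without MI4KO mouse 1 it was 0.0034. Pgm2 was at 383.0, 363.9, 372.3 and 349.4 in flox mice and at 346.2, 326.9, 451.6 and 388.1 in MI4KO mice. The MI4KO mice lay on both sides of the flox range, with MI4KO mouse 2 lowest and MI4KO mouse 3 highest. Its log2 difference was 0.03 with a standard error of 0.09 and an interval from -0.17 to 0.24, and without MI4KO mouse 3 it was -0.06. Pgm1 was low, at 2.24, 2.98, 3.15 and 2.26 in flox mice and 2.25, 3.75, 3.46 and 2.54 in MI4KO mice. These values rest on 31 to 58 reads per mouse and gave a log2 difference of 0.12 with a standard error of 0.16 and a wide interval, from -0.22 to 0.46.

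Synthesis genes showed no separation of the groups either. Gyg, which primes the particle, was at 484.2, 485.9, 513.0 and 504.0 in flox mice and at 547.5, 511.6, 547.7 and 455.9 in MI4KO mice. The MI4KO mice were above the flox range in MI4KO 1 and 3 and below it in MI4KO 4, and the log2 difference was 0.05 with a standard error of 0.08 and an interval from -0.11 to 0.21. Gys1, which extends the chains, was at 926.1, 754.7, 919.5 and 882.3 in flox mice and at 811.1, 796.8, 868.9 and 925.9 in MI4KO mice. Flox mice held both the highest and the lowest value of Gys1. The group means were 870.7 ± 79.7 and 850.7 ± 59.0 (SD, n = 4 each), and the log2 difference was -0.03 with a standard error of 0.09 and an interval from -0.22 to 0.16. Gbe1, which adds the branches, was at 158.7, 130.1, 154.7 and 150.0 in flox mice and at 171.6, 157.6, 150.1 and 150.9 in MI4KO mice. The highest value came from MI4KO mouse 1 and the lowest from flox mouse 2. Gbe1 had the smallest p of the 9 (unadjusted p = 0.288, adjusted p = 1.0, limma), with a log2 difference of 0.09, a standard error of 0.08 and an interval from -0.08 to 0.26.

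Breakdown genes overlapped as well. Pygm, the muscle phosphorylase, was at 2404, 2276, 2406 and 2216 in flox mice and at 2109, 1903, 3056 and 2470 in MI4KO mice. The flox mice lay close together, whereas MI4KO mice 1 and 2 were below all of them and MI4KO mice 3 and 4 above. The group means were 2326 ± 95.02 and 2385 ± 505 (SD, n = 4 each), and the log2 difference was 0.01 with a standard error of 0.13 and an interval from -0.26 to 0.29. For the 8 log2 values of Pygm, exact permutation of the group labels gave a two-sided p of 0.914, where the smallest p that 4 against 4 mice allow is 0.0286. Without MI4KO mouse 3 the log2 difference of Pygm was -0.11. Gaa was at 217.9, 192.1, 227.2 and 214.8 in flox mice and at 200.8, 189.2, 239.4 and 216.7 in MI4KO mice, with a log2 difference of -0.01 and an interval from -0.20 to 0.17. The highest and the lowest value of Gaa were both from MI4KO mice, number 3 and number 2. Stbd1 was at 13.2, 17.3, 14.5 and 11.4 in flox mice and at 18.7, 16.2, 11.2 and 12.6 in MI4KO mice, with a log2 difference of 0.04 and an interval from -0.30 to 0.38. It rests on 157 to 258 reads per mouse, and again MI4KO mice held both ends of the range.

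**Figure D2:**
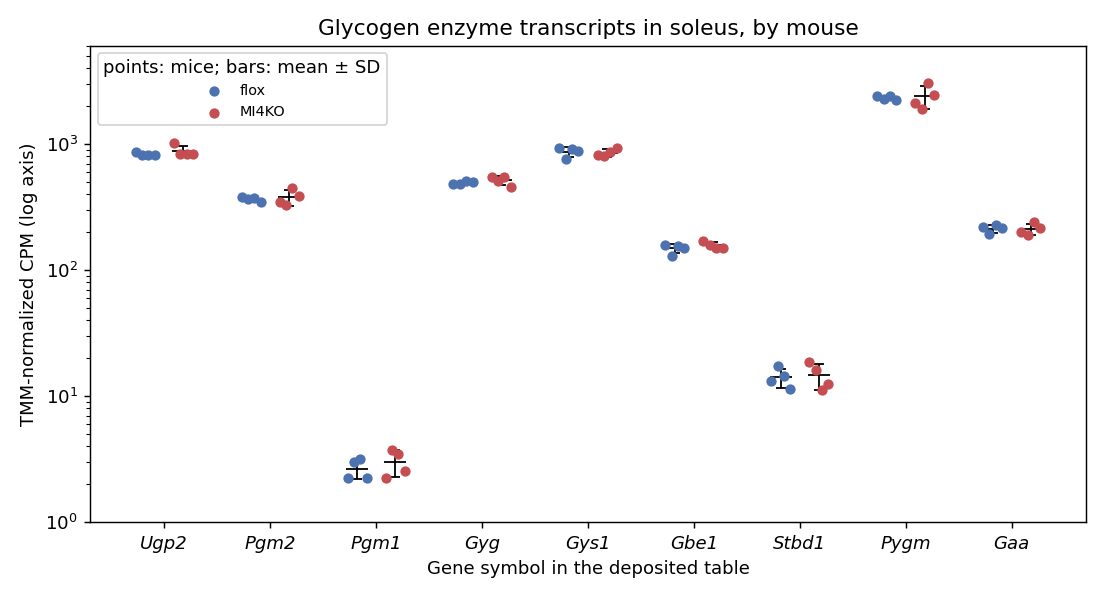
TMM-normalized CPM of the 9 glycogen enzyme genes (logarithmic vertical axis) in each flox and MI4KO mouse, ordered along the horizontal axis from substrate supply through synthesis to breakdown. Points are mice and black bars are the mean ± SD of 4 mice. Flox and MI4KO points overlap for all 9 genes, and the MI4KO mice of Pygm spread from 1903 to 3056 around flox mice between 2216 and 2406.

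All 9 members passed the filter on low values, and 0 of 9 passed a fold change of 1.5 at an unadjusted p under 0.05 in limma, limits that 26 of the 11865 genes tested passed (0.219%). At an unadjusted p under 0.05 alone, 0 of 9 members and 3.36% of all genes tested were found. No gene of the whole table had an adjusted p under 0.05 in limma, and edgeR and DESeq2 on the recovered reads also gave 0. Values did not overlap between groups for 0 of 9 members and for 2.07% of all genes. The log2 differences of the 9 ran from -0.03 (Gys1) to 0.12 (Pgm1) with a median of 0.04. Of these, 7 were positive and 2 negative (Gys1 and Gaa). Scaling by library size raised all 9, with Gys1 then at 0.01 and Gaa at 0.03, so the signs of the smallest differences depend on the scaling. The median size of the difference was 0.04, against 0.07 over all genes tested and 0.04 over the 1390 genes whose mean was 100 or more. All 9 intervals lay inside a 1.5-fold change in either direction (0.585 on the log2 scale), as did those of 90.7% of all genes tested. For the low gene Pgm1 this rests on the added 1, since its interval reached 0.61 with 0.1 added. The p-values weigh each difference against the spread between these mice, which limma draws toward that of genes of similar level.

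**Figure D3:**
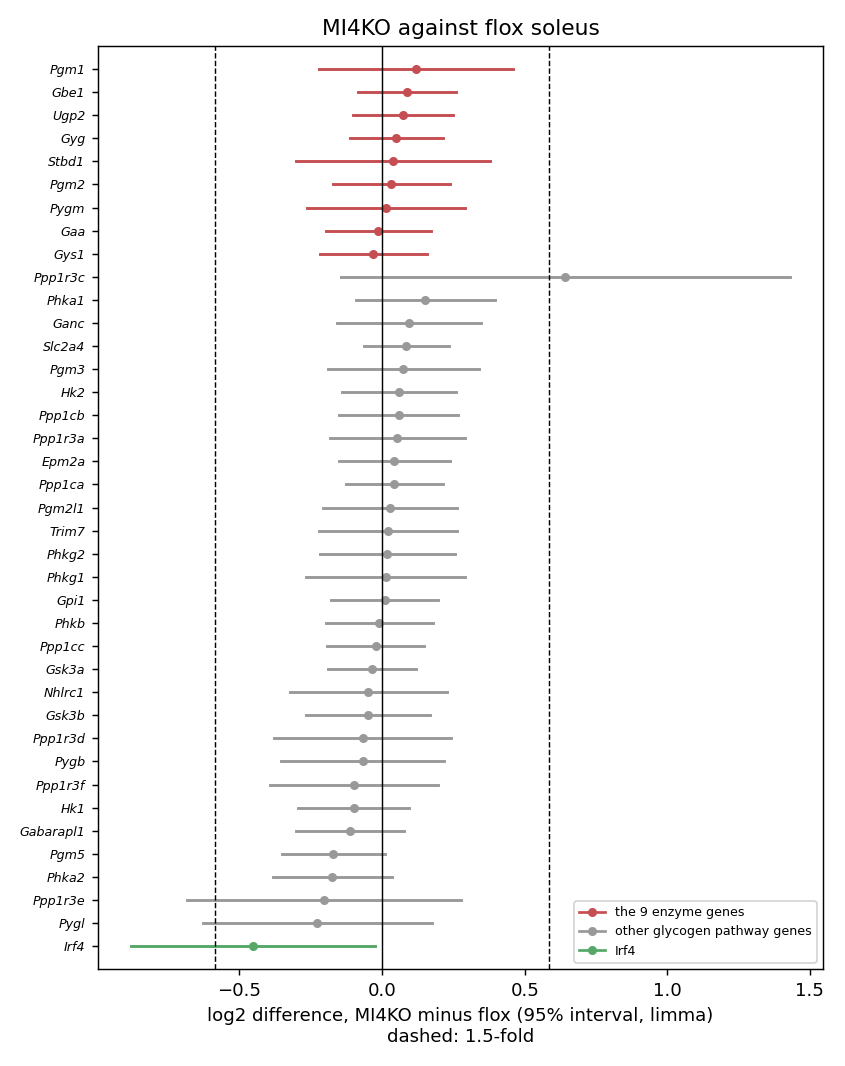
Log2 difference of MI4KO minus flox SOL (horizontal axis, points) with its 95% interval from limma (lines) for the 9 enzyme genes, 29 other glycogen pathway genes and Irf4 (vertical axis). Dashed lines mark a 1.5-fold change. All 9 enzyme intervals include 0 and stay between the dashed lines, and the interval of Ppp1r3c extends to 1.43.

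A list of 32 other genes of glycogen metabolism was read beside the members, and 29 of them passed the filter. Those that did not were Gys2 and the targeting subunits Ppp1r3b and Ppp1r3g. None of the 29 passed the limits or had an unadjusted p under 0.05 in limma, and 15 were positive and 14 negative with a median log2 difference of 0.0092. Their lowest difference was that of Pygl (-0.23) and their highest that of Ppp1r3c (0.64). Without MI4KO mouse 2, Pygl was at -0.40 (unadjusted p = 0.0282, limma) and Ppp1r3c at 0.84 (unadjusted p = 0.0469, limma), with adjusted p = 1.0 for both. Ppp1r3c encodes the glycogen-targeting subunit PTG of protein phosphatase 1. Ppp1r3c was at 283.4, 230.2, 274.0 and 222.4 in flox mice and at 292.6, 259.8, 1128 and 276.9 in MI4KO mice. A single mouse, MI4KO 3, was far above the rest, and without it the log2 difference of Ppp1r3c was 0.14. In edgeR's quasi-likelihood test on all 8 mice it was 0.94 (unadjusted p = 0.0375, adjusted p = 0.999). That was not the lowest unadjusted p of Ppp1r3c among the alternative runs, and no run gave it an adjusted p under 0.05. In MI4KO mouse 3 the 9 members did not move together, as Pygm, Pgm2, Gaa and Gyg had their highest value of 8 mice there and Stbd1 its lowest. With scaling by library size, this held for Pygm, Pgm2 and Stbd1, while Gaa was highest in MI4KO mouse 4 (224.2, against 219.8 in MI4KO mouse 3) and Gyg in MI4KO mouse 1 (562.5, against 502.9). Gys1, whose product PTG brings to the phosphatase, was at 868.9 in MI4KO mouse 3, inside the flox range. The sum of neutrophil markers was high in this mouse, from S100a8 and S100a9 alone. The part of this in its other values was not tested.

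Only Pgm5 and Phka2 of the 29 had values that did not overlap between the groups, against 2.07% of all genes. Both were lower in every MI4KO mouse after TMM normalization, and neither had an unadjusted p under 0.05 in limma. With scaling by library size, the groups overlapped for both genes, so the separation depends on the scaling. Pgm5 was at 96.5, 99.2, 96.6 and 97.7 in flox mice and at 93.6, 85.5, 73.6 and 94.9 in MI4KO mice, a log2 difference of -0.17 with a standard error of 0.08. Phka2, the liver-type regulatory subunit of the kinase that activates phosphorylase, was at 10.2, 10.1, 12.5 and 11.1 in flox mice and at 9.29, 9.70, 9.97 and 9.43 in MI4KO mice, a log2 difference of -0.17 with a standard error of 0.10. These genes are named because their groups did not overlap, so a permutation test would only restate that choice. The muscle form Phka1 overlapped, at 162.7, 146.4, 146.8 and 139.2 in flox mice and 148.3, 137.1, 203.8 and 179.5 in MI4KO mice. Ppp1r3a, the muscle glycogen-targeting subunit, also overlapped, between 100.3 and 143.3 in flox and between 111.4 and 143.3 in MI4KO mice.

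The members varied among mice in separate ways. Over the 36 pairs of members and 8 mice, the median Pearson correlation of log2 values was 0.09, 4 pairs were above 0.7 and only Pygm and Pgm2 were above 0.9. Pygm and Pgm2 followed each other across both groups (r = 0.99, Spearman rho = 0.98), and without MI4KO mice 2 and 3, the most distant ones, r was 0.96. With scaling by library size in place of TMM, r was 0.93. Among 11846 genes compared, Pgm2 was the gene most like Pygm and Pygm the gene most like Pgm2, followed in both cases by Atp2a1, the calcium pump of fast fibers (r = 0.99 each). Gaa and Stbd1, both tied to lysosomal glycogen, went in opposite directions (r = -0.77). These are descriptions over 8 mice whose values share the same libraries and scaling.

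Other members had other nearest genes. Gys1 was most like Mef2d, the gene of a muscle transcription factor (r = 0.98), Gyg most like Spcs1 (r = 0.98), Ugp2 most like Rabep1 (r = 0.97) and Gbe1 most like Lgi1 (r = 0.96). Gaa was most like the translation initiation factor gene Eif4g1 (r = 0.98), Stbd1 most like Cript (r = 0.95) and Pgm1 most like Rac2 (r = 0.92). Each is the highest of 11846 correlations over 8 mice, so a high r alone does not mark a linked pair. Genes with r above 0.9 numbered 180 for Gaa, 176 for Pygm, 170 for Pgm2, 79 for Gys1 and 70 for Gyg. They numbered only 29 for Ugp2, 17 for Gbe1, 8 for Stbd1 and 3 for Pgm1. The scaling itself varied between mice, with values summing to between 917785 in MI4KO mouse 2 and 1089208 in MI4KO mouse 3. These sums correlated with Gaa (r = 0.90), Pygm (r = 0.78) and Pgm2 (r = 0.71), and their part in the likeness was not tested. After scaling by library size, Pygm was still lowest in MI4KO mouse 2 at 2074 and highest in MI4KO mouse 3 at 2805. Pgm2 was still highest in MI4KO mouse 3 but lowest in flox mouse 4 (342.5, against 356.2 in MI4KO mouse 2), and Gaa was lowest in flox mouse 2 at 199.0.

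**Figure D4:**
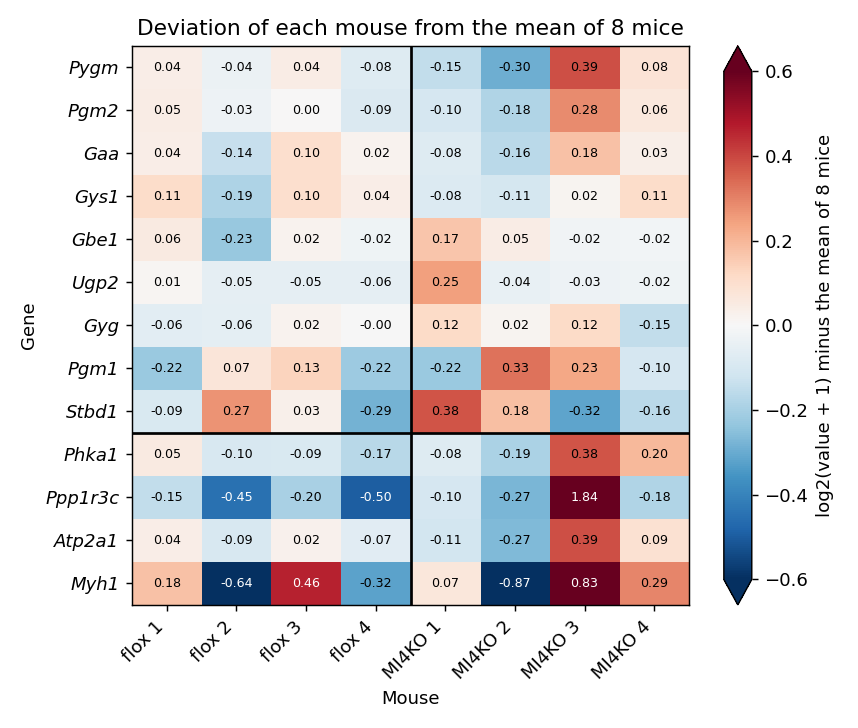
Deviation of log2(value + 1) from the mean of 8 mice (color and printed number) for the 9 members above the horizontal line and 4 other genes below it (vertical axis), by mouse (horizontal axis, flox left and MI4KO right of the vertical line). Color is capped at 0.6 in either direction. Pygm, Pgm2 and Atp2a1 are lowest in MI4KO mouse 2 and highest in MI4KO mouse 3, whereas Ugp2 is highest in MI4KO mouse 1.

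Phosphorylase is known to be more abundant in fast than in slow fibers, and the 9 fast fiber genes of the list varied unequally among these mice. Myh4, the myosin of the fastest fibers, was at 1807, 2496, 34.5 and 35.4 in flox mice and at 278, 831, 55.8 and 2174 in MI4KO mice. Myh1, the myosin of intermediate fast fibers, was at 4964, 2824, 6042 and 3511 in flox mice and at 4600, 2406, 7824 and 5389 in MI4KO mice. Other fast genes varied less, such as Tnnt3 between 8193 and 10420 and Tnni2 between 3993 and 5198. Pygm did not follow Myh4 (r = -0.27) and its correlation with Myh1 was 0.84, or 0.51 without MI4KO mice 2 and 3. A score of the 9 fast fiber genes was the mean of their log2 values, so Myh4, with the widest spread, weighed most in it. MI4KO mouse 3 had the highest sum of these genes (47670) but a score of 10.6, below the 11.3 of flox mouse 2 (sum 38339). The score thus reads mainly Myh4 and not fast fiber content as a whole. With group as a term, the slope of each member on this score had an unadjusted p between 0.165 and 0.928 in limma. Of the members, 0 of 9 were below 0.05, against 2.45% of all genes. On Myh1 alone, a choice made after seeing the data, 3 of 9 members had an unadjusted p under 0.05, against 11.5% of all genes. The slopes were 0.30 for Pygm, 0.20 for Pgm2 and 0.19 for Gaa (standard errors 0.08, 0.07 and 0.05), in log2 units per log2 unit of Myh1. Each had an adjusted p of 0.383 in limma, and no gene of the table passed 0.05 after adjustment. The correlation with Myh1 was 0.84 for Pygm, 0.82 for Pgm2 and 0.91 for Gaa. With scaling by library size it was 0.71, 0.53 and 0.77, so the size of these relations depends on the scaling.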

How the data were processed

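SOL RNA of 4 MI4KO and 4 flox mice was measured. Libraries were made with a Kapa stranded mRNA kit and read as 50-base single ends. The authors used Bowtie2 2.1.0 against UCSC transcripts, RSEM 1.2.15 for expression and TMM for normalization, and the submitters' processing notes name the build mm10. The signal deposited for every gene and mouse is in TMM-normalized CPM. The authors' own comparison with edgeR, deposited as a fold-change score, p-values and FDR, was not used. Dividing by each mouse's step gave whole reads for 100% of non-zero values. 6086 genes had no read and 27 symbols had been turned into dates. Read totals and floors cover counting error only.

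MI4KO and flox mice were compared with limma 3.58.1 (R 4.3.3) on log2(value + 1), trended on the mean, over genes that reached 1 in 4 or more of the 8 mice. The added 1 makes differences of low genes appear smaller than they are. Benjamini-Hochberg adjustment covered all genes tested. edgeR 4.0.16 and DESeq2 1.42.0 on the recovered reads were alternatives. The fits were tested on simulated reads drawn independently for each gene, with a random score for the slopes. The simulation did not model genes that vary together among mice or a score led by Myh4. The labels number each mouse, and groups share no number. The members, lists and tests were chosen with earlier results of these data known. Genes named are the members, isoforms of members, Ppp1r3a, Ppp1r3c, the pathway list's extremes, and up to 2 genes most like each member by Pearson correlation. Phka1, Phka2, Ppp1r3b and Ppp1r3g, and Myh1 as a score, were chosen after their values were seen. One listed pathway gene is not reported here. Positions are from GENCODE M21 (GRCm38) and promoters from RefSeq (GRCm38.p6), both by symbol. Of the table's symbols, 22542 matched a current RefSeq symbol, 1345 an older one and 165 none.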

Additional observations from a re-analysis of the deposited data

Results flagged for a closer look

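Of 34 groups of 4 mice examined for the 9 enzymes, their isoforms and regulators, 4 held a mouse set apart from the other 3, where chance gives about 1 in 20. The gap is judged against the group's own range, so it can be small in value where the other 3 lie close together. In flox mice, Ugp2 was 861.7 in mouse 1, while the other 3 lay from 821.5 to 823.5, a gap of 0.950 of the group's whole range. In MI4KO mice, Ugp2 was 1013 in mouse 1 and between 827.6 and 839.0 in the others, a gap of 0.932. Ppp1r3c was 1128 in MI4KO mouse 3, while the other 3 lay from 259.8 to 292.6, a gap of 0.919. Pygb was 18.8 in flox mouse 2, below the range of 27.1 to 29.1 of the rest, a gap of 0.835.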

How the results depend on the processing

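In every alternative run, 0 of the 9 members passed the limits and 0 had an unadjusted p under 0.05 in the group comparison, and the lowest unadjusted p of any member was 0.120 (Gbe1, limma, without flox mouse 1 and MI4KO mouse 3). The number of all genes past the limits was 26 and became 71 with a pseudocount of 0.1, 13 with robust estimation, 65 with edgeR's quasi-likelihood test, 78 with edgeR's exact test, 51 with DESeq2 and 41 without flox mouse 1 and MI4KO mouse 3. With 1 mouse left out it was between 19 and 58, the latter without MI4KO mouse 4. The count at an adjusted p under 0.05 was between 0 and 1 with 1 mouse left out, 1 without MI4KO mouse 2, and 1 without flox mouse 1 and MI4KO mouse 3 together. The cause of these shifts was not tested.

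Log2 differences near 0 changed sign. That of Gaa became 0.0052 with median-of-ratios scaling, 0.031 with library size scaling, 0.0039 in both edgeR tests and 0.0065 in DESeq2, and that of Gys1 became 0.013 with library size scaling. Without flox mouse 1 and MI4KO mouse 3, Pgm2 was at -0.036 and Pygm at -0.097. With 1 mouse left out, the differences ran from -0.098 to 5.3e-05 for Gys1, from -0.056 to 0.099 for Pgm2, from -0.11 to 0.11 for Pygm, from -0.074 to 0.038 for Gaa, from -0.080 to 0.15 for Stbd1, from 0.0034 to 0.10 for Ugp2, from 0.027 to 0.12 for Gbe1, from 0.031 to 0.21 for Pgm1 and from 0.020 to 0.11 for Gyg.

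Slopes on the fast fiber score also changed sign. The slope of Ugp2 was 0.0032 without the group term, and library size scaling gave 0.046 for Gys1, 0.013 for Gbe1, 0.080 for Ugp2 and 0.030 for Pgm1. With Myh4 alone as the score, slopes were 0.00076 for Ugp2, -0.010 for Pgm2 and -0.021 for Pygm. With Myh1 alone, added after seeing the data, they were 0.14 for Gys1, 0.029 for Gyg, 0.040 for Gbe1, 0.012 for Ugp2, 0.19 for Gaa and -0.24 for Stbd1, and 3 members in place of 0 had an unadjusted p under 0.05. With 1 mouse left out, slopes ran from -0.092 to 0.092 for Gys1, from -0.16 to 0.0084 for Gbe1, from -0.041 to 0.027 for Ugp2, from -0.21 to 0.055 for Pgm1, from -0.025 to 0.095 for Pygm, from -0.11 to 0.0011 for Gaa and from -0.057 to 0.23 for Stbd1. The count of all genes with a slope at an adjusted p under 0.05 was 0, became 1 with a pseudocount of 0.1, and was between 0 and 2 with 1 mouse left out, 2 without MI4KO mouse 3. The order of levels per kb was the same for 36 of 36 pairs of members with the union of exons as the length and for 35 with the median transcript length, which placed Gys1 above Gyg. Of 417 results under alternatives, 343 were kept and 49 changed sign. The 417 hold values of single genes and also counts of all genes past the limits that were higher or lower in MI4KO mice. A value of a single gene was kept if its direction and its side of the threshold stayed the same. A count was kept if it stayed within a set fold of its main value. Only values of single genes could change sign.

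Pgm1 rests on 31 to 58 reads per mouse, so that counting error limits it more than the other members. The labels share no number between groups, so no mice could be paired. The numbers fall into a low run with 1 flox and 2 MI4KO mice and a high run with 3 flox and 2 MI4KO mice, and what a run stands for is not given. With the run as a covariate, added after seeing the data, 0 members passed the limits or had an unadjusted p under 0.05, 37 of all genes passed the limits, Pygm was at 0.071, Gaa changed sign to 0.014 and Stbd1 to -0.024.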
